A study of Mus musculus with 9 samples.

Results

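The 40 genes described here encode proteins that detect, signal and repair DNA damage, chiefly by homologous recombination. They were chosen by name, with earlier results of these data known. All 40 were found among the 55471 gene identifiers of the deposited counts, and all 40 passed the filter on low counts. RNA was sequenced from mouse CD8+ T cells carrying OT-I, a transgenic receptor for an ovalbumin peptide. Both groups were activated for 24 h with antibodies to CD3ε and CD28 and 50 U/mL IL-2, transduced with a short hairpin RNA (shRNA), cultured for 2 more days, sorted on the Ametrine reporter and given to naive mice of the C57BL/6 (CD45.1) strain. The hosts, which keep lymphocytes of their own, were infected 1 day later with LmOVA, Listeria monocytogenes engineered to express ovalbumin, and CD45.2 Ametrine+ cells were sorted on day 7 of infection. The control group (Bdh1-WT;shCtrl, n = 4) had intact Bdh1 and an shRNA against firefly luciferase. The group labelled DKO (Bdh1-KO;shOxct1, n = 5) was a Bdh1 knockout with an shRNA against Oxct1, so that 1 of the 2 genes was knocked down and not deleted. Bdh1 and Oxct1 encode enzymes with which mitochondria use ketone bodies. The labels give neither the age or sex of the mice nor the design of the Bdh1 allele, and leave it unsaid whether replicates came from separate donors or hosts, so p-values measure the spread between these libraries, which may be technical.

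Homologous recombination mends a broken chromosome by copying the intact sister, and so works mainly in cells that have replicated their DNA. The MRN complex and nucleases trim the break to single strands, the ATM and ATR kinases signal it, BRCA proteins prepare the single strand for pairing, RAD54 and the XRCC2 and XRCC3 complexes help it invade the sister, and helicases and nucleases undo the joint molecules. Fanconi anaemia proteins open crosslinked DNA so that the same machinery can act. Many of these genes are known to be transcribed most in cells entering or passing through S phase, and CD8+ T cells divide fast in the days after they meet their antigen.

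Each library held 45205993 to 59853080 counts in genes. Levels are given as CPM, counts scaled to the size of the library, and differences as the log2 fold change of DKO over control from edgeR's quasi-likelihood test over 14918 genes. A gene was called changed when its Benjamini-Hochberg adjusted p was under 0.05. Oxct1 fell by 3.61 on the log2 scale (SE 0.10, adjusted p = 4.58e-09), from 59.2 to 71.5 CPM in control to 4.61 to 5.51 CPM in DKO. Bdh1 fell by 1.52 (SE 0.13, adjusted p = 1.36e-04), from 25.1 to 35.1 CPM to 8.98 to 11.6 CPM. Control replicate 1 stood apart from the other libraries on the first principal component and had the largest share of unmapped reads, 16.7% against 10.3 to 12.3% in the others, and control replicate 3 stood apart on the second. Cd8a, a defining CD8 T cell gene, had mean CPM of 719 in control against 716 in DKO, and Cd4 had 0.172 against 0.344. The 3 CD4 T cell genes read, Cd4, Foxp3 and Cd40lg, had fold changes above 0 and 0 were called. Cd40lg was the most abundant of them, with mean CPM of 20.4 in control and 29.4 in DKO. Of 6 CD8 T cell genes, 1 was called, Cd8b1, which was lower in DKO (adjusted p = 0.0428). All 6 had fold changes below 0, with a median of -0.23. Their summed CPM was 6102 to 8206 in control and 5510 to 6016 in DKO. The summed CPM of 10 myeloid genes was 251.7 to 290.7 in control and 201.3 to 215.4 in DKO, and 2 of the 9 tested were called lower, the protease gene Ctss and the lysosomal gene Cd68. Of the other 7, 5 had fold changes below 0 and 2 above, Lyz2 (1.27, adjusted p = 0.206) and Csf1r (0.37, adjusted p = 0.804). Mpo, which marks granulocyte precursors, was at 0 to 0.079 CPM. The part of these myeloid genes in the results was not tested.

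Among the 40 genes, 5 rose in DKO and 0 fell. The 5 were Esco2, Exo1, Chek1, Brca1 and Rad54l, with fold changes of 1.33 to 2.10 on the log2 scale. They make up 12.5% of the list, where 2.83% of all tested genes were called, 1.32% as higher and 1.51% as lower. At an unadjusted p under 0.05, 18 of the 40 were higher in DKO and 0 lower, against 7.74% and 8.25% of all tested genes. Limma-voom had 1 of the 40 lower at that threshold and DESeq2 0, and at an adjusted p under 0.05 both called 0 lower. In edgeR, 2 were lower at the unadjusted threshold without control replicate 1, and 2 without both control replicate 1 and DKO replicate 5. Without control replicates 1 and 3 there was 1. The fold change was above 0 for 34 of 40 genes (85%), against 48.6% of all tested genes, and its median was 0.38 against -0.01. In 12 of the 40 genes (30%) the lowest DKO library lay above the highest control library, and in none was the order the other way. Over all tested genes the groups did not overlap in 8.71%, and lay in this direction in 4.62%. These 12 were Exo1, Chek1, Topbp1, Brca1, Bard1, Xrcc2, Rad54l, Fancd2, Blm, Eme1, Msh6 and Esco2. Because the 40 genes were chosen with earlier results of these data known, the shares above describe the list and do not test it. In bulk RNA, more cells that express a gene and more RNA per cell cannot be told apart.

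**Figure D1:**
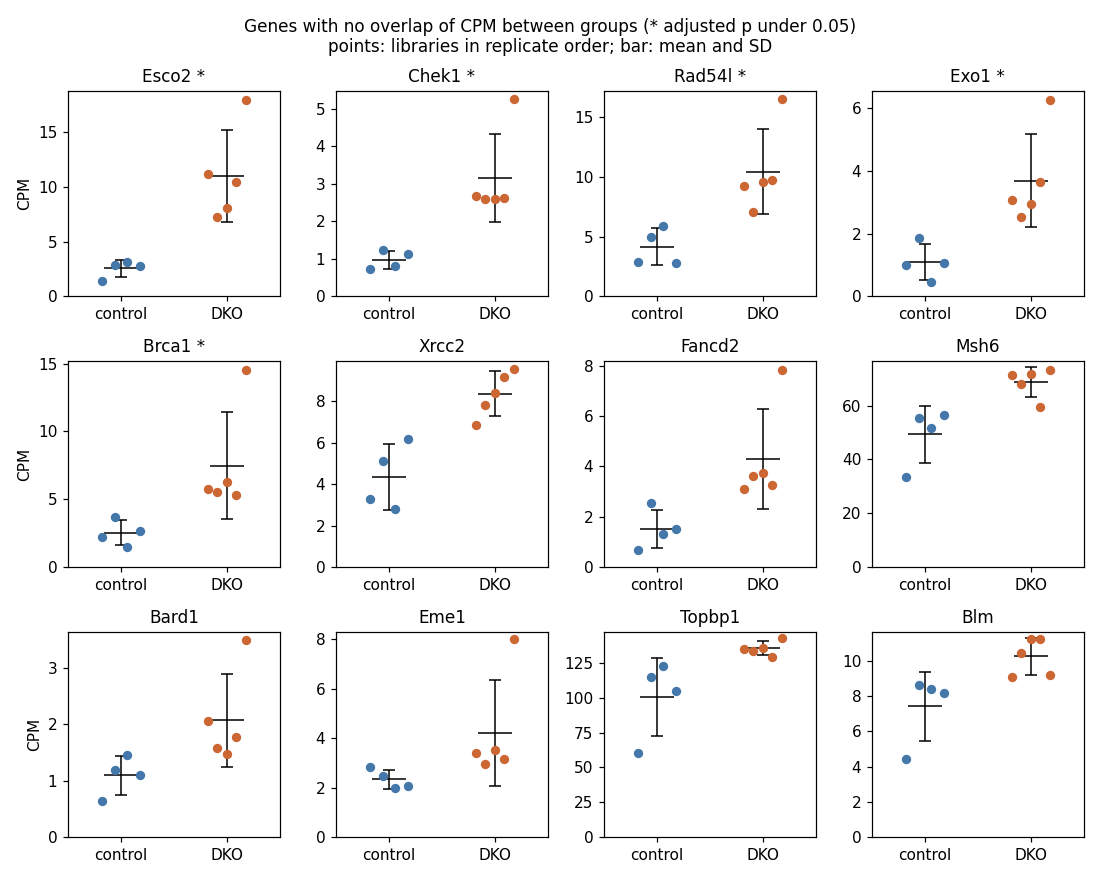
CPM of the 12 genes whose control and DKO libraries did not overlap, 1 panel per gene, with an axis from 0. Points are the 4 control and 5 DKO libraries in replicate order and bars are the mean and SD; all 5 DKO points lie above all 4 control points in each panel, and DKO replicate 5 is the highest in every panel but that of Blm.

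Compared per kilobase of exon, the levels of the 40 genes over the 9 libraries ran from 0.145 CPM per kb for Rad51b, a strand exchange gene, to 13.8 CPM per kb for Msh6, a mismatch sensor. Mus81 (13.7), Fancg (13.4), Rad50 (12) and Topbp1 (10.7 CPM per kb) came next below Msh6. The 5 genes that rose were in the lower part of this order, with Exo1 at 0.302, Chek1 at 0.472, Brca1 at 0.618, Rad54l at 0.990 and Esco2 at 1.09 CPM per kb. Esco2 was at 0.384 CPM per kb in control and 1.65 in DKO.

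Of the 6 genes that sense and trim break ends, 1 rose. MRE11, RAD50 and NBS1 form the MRN complex that first binds a break, CtIP (Rbbp8) starts the trimming, EXO1 is a nuclease that extends it, and 53BP1 (Trp53bp1) shields the end from it. Exo1 (chromosome 1:175880581-175913489, plus strand, GRCm38) was at 1.01, 1.86, 0.465 and 1.06 CPM in the control libraries and at 3.08, 2.54, 2.94, 3.66 and 6.26 CPM in the DKO libraries. Every DKO library was above every control library, and DKO replicate 5 was the highest. Its fold change was 1.74 (SE 0.38, 95% interval 0.91 to 2.57, adjusted p = 0.0357). This call held in 3 of the 9 fits that each left out 1 library; without control replicate 3 or 4 or DKO replicate 1, 3, 4 or 5 the adjusted p was 0.0539 to 0.101, and without DKO replicate 5 the fold change was 1.47.

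The other genes of break ends did not pass the test. Rad50 was at 53.8, 67.6, 79.6 and 64.5 CPM in control and 66.2, 64.7, 67.5, 59.7 and 56.6 CPM in DKO, with the DKO libraries inside the range of control. Its fold change was -0.08, with a 95% interval of -0.32 to 0.17. Mre11a had 27.5 to 35.0 CPM in control and 32.5 to 35.8 CPM in DKO (fold change 0.10, interval -0.10 to 0.30), and Nbn had 14.5 to 17.1 and 13.5 to 16.3 CPM (-0.06, interval -0.29 to 0.16). The intervals of the 3 MRN genes therefore exclude a change of 2-fold. Rbbp8 had a fold change of 0.14 (adjusted p = 0.594) and Trp53bp1 of 0.23 (adjusted p = 0.547), and both groups of libraries overlapped in each.

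Of the 5 checkpoint genes, 1 rose. ATM answers to double-strand breaks and activates CHK2, ATR answers to single-stranded DNA at stalled forks and activates CHK1, and TOPBP1 switches ATR on. Chek1 (chromosome 9:36708482-36727065, minus strand) was at 0.743, 1.23, 0.818 and 1.14 CPM in control and 2.69, 2.61, 2.59, 2.63 and 5.25 CPM in DKO. The first 4 DKO libraries lay within a narrow band above all controls, and DKO replicate 5 lay well above them. The fold change was 1.67 (SE 0.28, interval 1.05 to 2.29, adjusted p = 0.0117), was called without any 1 library, and was 1.41 without DKO replicate 5 (adjusted p = 0.0135). With control replicates 1 and 3 both left out the adjusted p was 0.0512.

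Topbp1 had the highest CPM of the 40 genes, at 60.4, 115, 123 and 105 in control and 135, 134, 136, 129 and 143 in DKO. The groups did not overlap, and control replicate 1 lay far below the other controls. The fold change of 0.43 (interval 0.06 to 0.79) did not pass adjustment (adjusted p = 0.237). Topbp1 was called with control replicates 1 and 3 both left out (0.29, adjusted p = 0.0434) and with 1 surrogate variable (adjusted p = 0.00417). Chek2 had a mean of 13.2 ± 2.69 CPM over the control libraries (SD, n = 4) against 17.1 ± 0.956 CPM over the DKO libraries (SD, n = 5), with a fold change of 0.37 and an adjusted p of 0.227 from edgeR. The 2 kinases at the top of the pathway had fold changes below 0: Atm was at 22.1, 36.4, 51.0 and 30.8 CPM in control against 28 to 35.0 CPM in DKO (-0.18, interval -0.60 to 0.24). Atr was at 14.4, 40.8, 49.0 and 42.2 CPM in control and at 34.9, 31.8, 33.2, 36.8 and 30.6 CPM in DKO. Control replicate 1 lay below every DKO library and the other controls above every one. With all libraries the fold change of Atr was -0.13 (interval -0.71 to 0.45, adjusted p = 0.853), and without control replicate 1 it was -0.41 (SE 0.09, adjusted p = 0.0231). Atr also passed without both control replicate 1 and DKO replicate 5 (-0.38, adjusted p = 0.0431), and Atr was the only one of the 40 genes to be called lower in any fit run.

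Of the 5 genes of the BRCA complexes, 1 rose. BRCA1 and BARD1 form a ubiquitin ligase that favours end trimming, PALB2 links BRCA1 to BRCA2, BRCA2 readies the trimmed strand for pairing, and BRIP1 is a helicase that binds BRCA1. Brca1 (chromosome 11:101488764-101551955, minus strand) was at 2.23, 3.70, 1.46 and 2.69 CPM in control and 5.77, 5.52, 6.26, 5.34 and 14.5 CPM in DKO. The groups did not overlap, and DKO replicate 5 was far above the other 4. Its fold change was 1.56 (SE 0.36, interval 0.78 to 2.34, adjusted p = 0.0406). The call held in 1 of 9 fits with a library left out, that without control replicate 2; in the other 8 the adjusted p was 0.0502 to 0.104, limma-voom gave 0.0563, and without DKO replicate 5 the fold change was 1.18. Bard1, the partner of BRCA1, was at 0.640, 1.19, 1.46 and 1.11 CPM in control and 2.06, 1.58, 1.47, 1.77 and 3.49 CPM in DKO. The lowest DKO library was only just above the highest control, and the fold change of 0.91 did not pass (adjusted p = 0.177). Brip1 had a fold change of 1.11 with an interval of -0.02 to 2.24, with control replicate 1 at 0.413 CPM and the other controls at 3.20 to 6.19 CPM; it was called with 1 surrogate variable (adjusted p = 0.0168). Brca2 (0.40, adjusted p = 0.496) and Palb2 (0.15, adjusted p = 0.710) did not pass and their groups overlapped.

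Of the 8 genes of strand exchange, 1 rose, and the fold change was above 0 in all 8, with a median of 1.02. RAD54L and RAD54B are motor proteins that help pair the broken strand with the sister, RAD51AP1 stimulates this step, and XRCC2, XRCC3, RAD51B, RAD51C and RAD51D form complexes that assist it. Rad54l (chromosome 4:116094264-116123690, minus strand) was at 2.91, 4.98, 5.88 and 2.83 CPM in control and 9.21, 7.06, 9.56, 9.74 and 16.4 CPM in DKO. All DKO libraries were above all controls, with DKO replicate 5 the highest. Its fold change was 1.33 (SE 0.29, interval 0.70 to 1.95, adjusted p = 0.0346). The call held in 3 of 9 fits with a library left out and was lost without control replicate 2 or 4 or DKO replicate 1, 3, 4 or 5 (adjusted p 0.0546 to 0.0998). Rad54l overlaps Lrrc41 on the opposite strand. Counting without strand leaves out the reads of the overlap. When the 2 strand columns were summed instead, its counts were 4.93 times as many and the fold change was 0.27 (adjusted p = 0.232). Reads fell about evenly on the 2 strands (49.9 to 50.1% on the first), so the summed counts can hold reads of Lrrc41 as well as of Rad54l.

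Rad51ap1 had the largest fold change in this role, 1.49 (SE 0.40), but did not pass (adjusted p = 0.0784), save by DESeq2 (0.00265), with 1 surrogate variable (0.0461) and without DKO replicate 2 (0.0486). It was at 1.51, 3.89, 2.39 and 1.72 CPM in control and 5.85, 3.15, 5.49, 6.06 and 12.9 CPM in DKO. DKO replicate 2 lay inside the control range and DKO replicate 5 was far above the rest. Xrcc2 was at 3.26, 5.10, 2.81 and 6.19 CPM in control and 6.86, 7.84, 8.39, 9.16 and 9.59 CPM in DKO. Its groups did not overlap and its DKO libraries were even. The fold change of 0.94 (SE 0.23, interval 0.44 to 1.44) had an adjusted p of 0.0516, just over the threshold, and passed under 7 of 19 alternatives. Rad54b, part of whose exons belong also to Fsbp on the same strand, had a fold change of 1.23 and Rad51b one of 1.1, both without passing (adjusted p = 0.188 and 0.365). Rad51b had 7 to 52 counts a library, the fewest of the 40 genes, and its interval of -0.11 to 2.30 includes no change. At the other end, Rad51d, at 31.8 to 34.5 CPM in control and 33.8 to 36.7 CPM in DKO, had a fold change of 0.08 with an interval of -0.09 to 0.25. Rad51c and Xrcc3 each had a fold change of 0.33.

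**Figure D2:**
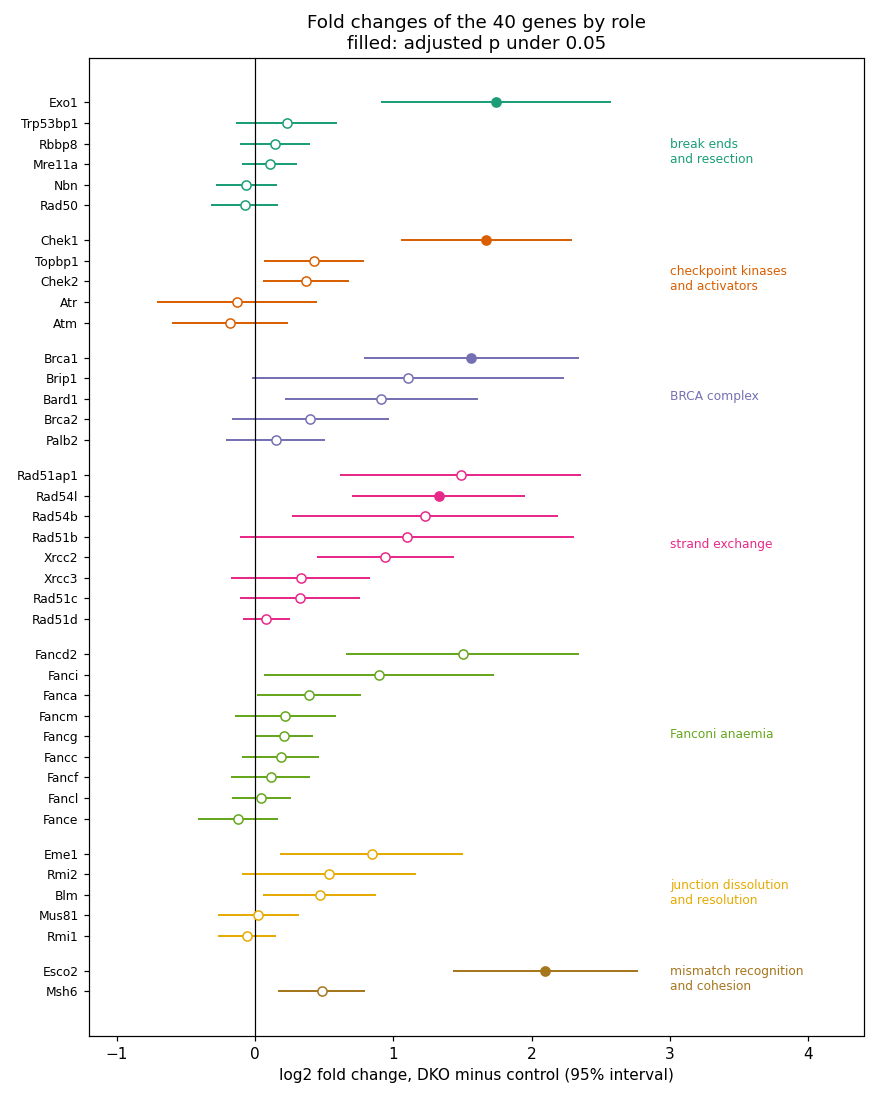
Log2 fold change of DKO over control for the 40 genes, grouped by role, with 95% intervals; filled points have an adjusted p under 0.05. The 5 filled points are Exo1, Chek1, Brca1, Rad54l and Esco2, in 5 different roles, and the Fanconi anaemia and junction groups hold none.

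None of the 9 Fanconi anaemia genes passed the test in edgeR, and 4 had an unadjusted p under 0.05, all higher in DKO. FANCA, FANCC, FANCE, FANCF, FANCG and FANCL belong to the core complex, a ubiquitin ligase that FANCM brings to DNA, and FANCD2 and FANCI are the pair it marks. The pair had the largest fold changes. Fancd2 was at 0.681, 2.54, 1.31 and 1.51 CPM in control and 3.08, 3.61, 3.74, 3.25 and 7.81 CPM in DKO. The groups did not overlap, and DKO replicate 5 stood above the rest. It had a fold change of 1.5 (SE 0.38, interval 0.66 to 2.34, adjusted p = 0.0667), and Fancd2 was called by DESeq2 (adjusted p = 0.00212), with 1 surrogate variable (adjusted p = 0.0319) and without control replicate 2 (adjusted p = 0.0395). DESeq2 and the surrogate variable fit call more genes everywhere, 6.96% and 8.37% of all tested genes against 2.83%. On simulated counts DESeq2 gave 21.4% false calls against 4.85% for edgeR. Fanci had a fold change of 0.89 (adjusted p = 0.277), from 1.49 to 4.69 CPM to 2.69 to 9.78 CPM, and shares exons with Polg on the opposite strand. The 6 core complex genes and Fancm had fold changes between -0.12 for Fance and 0.39 for Fanca. Fancg, the most abundant of them, was at 42.0, 52.7, 42.5 and 49.7 CPM in control and 55.4, 53.9, 54.4, 48.5 and 58.2 CPM in DKO, with 1 DKO library inside the control range (0.21, interval 0.00 to 0.42). Fancl, the ligase subunit itself, had a fold change of 0.05 (interval -0.17 to 0.26).

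None of the 5 genes that undo joint molecules passed either, and 2 had an unadjusted p under 0.05, both higher in DKO. BLM, RMI1 and RMI2 dissolve double Holliday junctions with a topoisomerase, and MUS81 with EME1 cuts them. Eme1 had the largest fold change, 0.84 (SE 0.30, interval 0.18 to 1.5, adjusted p = 0.190). It was at 2.83, 2.47, 1.99 and 2.09 CPM in control and 3.40, 2.98, 3.53, 3.16 and 8 CPM in DKO. The groups did not overlap, but 4 DKO libraries were close to control replicate 1 and only DKO replicate 5 was far above. Eme1 overlaps Lrrc59 on the opposite strand, and with summed strand columns its counts were 5.90 times as many and its fold change 0.33. The summed counts can likewise hold reads of Lrrc59. Mus81, the partner of EME1, was at 57.1, 45.7, 35.7 and 54.6 CPM in control and 49.3, 43.3, 52.8, 45.8 and 54.2 CPM in DKO. Its groups overlapped over most of their range (fold change 0.02, interval -0.27 to 0.32). Blm was at 4.46 to 8.62 CPM in control and 9.10 to 11.2 CPM in DKO, with no overlap and a fold change of 0.47 (adjusted p = 0.251). Rmi1 (-0.06, adjusted p = 0.802) and Rmi2 (0.53, adjusted p = 0.402) did not pass.

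Of the last 2 genes, Esco2 rose. ESCO2 acetylates cohesin during S phase, which holds sister chromatids together so that one can template repair of the other, and MSH6 recognises mismatched bases. Esco2 (chromosome 14:65819038-65833994, minus strand) had the largest fold change and the smallest p of the 40 genes. It was at 1.40, 2.87, 3.12 and 2.81 CPM in control and 11.2, 7.23, 8.03, 10.4 and 17.9 CPM in DKO. The groups were far apart, and DKO replicate 5 was again the highest. The fold change was 2.10 (SE 0.31, interval 1.43 to 2.77, adjusted p = 0.00517), and without DKO replicate 5 it was 1.85 (adjusted p = 0.00788). It was called in every one of the 19 other fits run, the 9 with a library left out included. Msh6 was at 33.6, 55.3, 51.8 and 56.6 CPM in control and 71.5, 67.9, 71.7, 59.5 and 73.4 CPM in DKO. The groups did not overlap and control replicate 1 was the lowest, but the fold change of 0.48 (interval 0.17 to 0.79) did not pass (adjusted p = 0.109). Msh6 was called without control replicate 1 (0.32, adjusted p = 0.0380), by DESeq2 (adjusted p = 0.0306), by limma-voom (adjusted p = 0.0237) and with 1 surrogate variable (adjusted p = 0.0113).

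Fold changes were read also by the level of the gene. A division at a mean of 10 CPM over all 9 libraries, chosen after the values were seen, put 21 genes below and 19 at or above it. All 21 genes below it had a fold change above 0, with a median of 0.94 (0.18 to 2.10), 5 of them called and 10 without overlap. Of the 19 above it, 13 were above 0, with a median of 0.10 (-0.18 to 0.48), 0 called and 2 without overlap, Topbp1 and Msh6. At an unadjusted p under 0.05 there were 4 of these 19, all higher. Over all tested genes, at any level, 7.74% were higher at that threshold. The groups did not overlap in 8.71% of them, and DKO was the higher in 4.62%. For all tested genes the medians were -0.10 in 6744 genes below the division and 0.03 in 8174 above it, with 2.51% and 3.10% called. The abundant genes were measured more precisely: the median width of the 95% interval was 0.58 for them and 1.32 for the others, and in 19 of 19 against 6 of 21 the interval lay within 1 log2 unit of no change. The abundant genes with fold changes near 0 included the break sensors Mre11a, Rad50 and Nbn, the kinases Atm and Atr, the nuclease subunit Mus81 and the Fanconi genes Fance, Fancf and Fancl. Of these, Atm and Atr were measured less precisely, with intervals of -0.60 to 0.24 and -0.71 to 0.45. Without control replicate 1 the fold changes of Atm and Atr were -0.36 and -0.41.

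**Figure D3:**
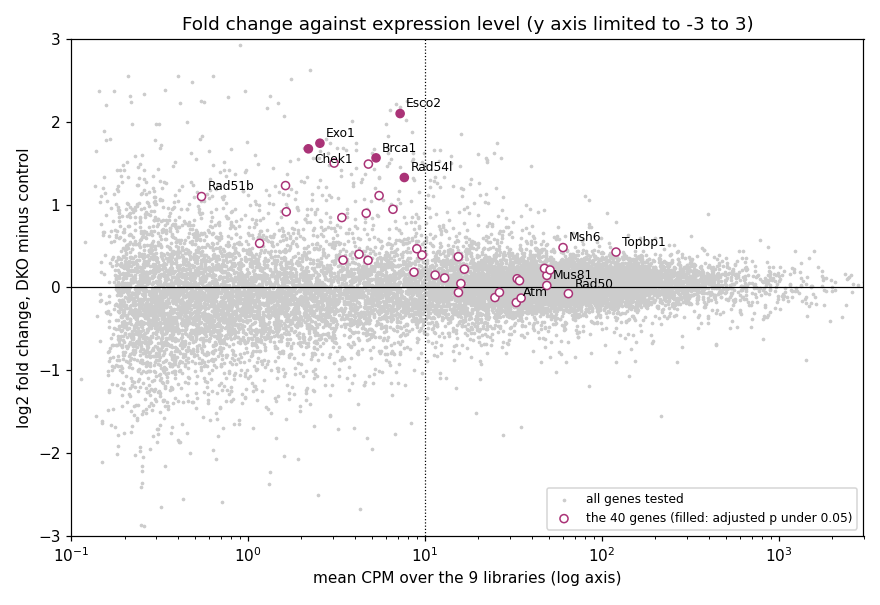
Log2 fold change (DKO minus control) against mean CPM over the 9 libraries on a log axis; grey points are all tested genes, and ringed points the 40 genes, filled where the adjusted p is under 0.05. The dotted line marks 10 CPM; all 21 of the genes to its left lie above 0, and the 19 to its right lie between -0.18 and 0.48.

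Single libraries moved many of the 40 genes together. DKO replicate 5 was the highest of the 9 libraries for 23 of the 40 genes, and control replicate 1 was the lowest for 23. The proliferation genes moved with them. The summed CPM of 20 cell cycle genes, such as Mki67, Top2a and the MCM helicase genes, was 1033, 1215, 1221 and 1165 in control and 1531, 1371, 1590, 1562 and 2109 in DKO. Control replicate 1 was thus the lowest and DKO replicate 5 the highest in this sum too, and the groups did not overlap. All 20 of these genes had a fold change above 0, with a median of 1.08, and 13 of the 20 were called higher. Of the MCM helicase genes, Mcm5 was called (0.77). Mcm2, Mcm3, Mcm4, Mcm6 and Mcm7 were not, with fold changes of 0.14 to 0.37, nor was Pcna (0.13). The MCM genes weigh heavily in the sum, Mcm6 alone with mean CPM of 359 in control and 395 in DKO. The part of the 20 genes in the changes of the repair genes was not tested. Without DKO replicate 5, 2 of the 40 genes were called, Esco2 and Chek1, and 1.54% of all genes. Without control replicate 1, 6 of the 40 were called, 5 higher and Atr lower, and 4.93% of all genes. With both left out 5 were called, 4 higher and Atr lower, and 4.17% of all genes. The median fold change of the 40 genes, 0.38 with all libraries, depended on these libraries. It was 0.30 without DKO replicate 5, 0.25 without control replicate 1 and 0.20 without both. The fold change stayed above 0 for 33, 34 and 34 of the 40 genes in these fits.

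**Figure D4:**
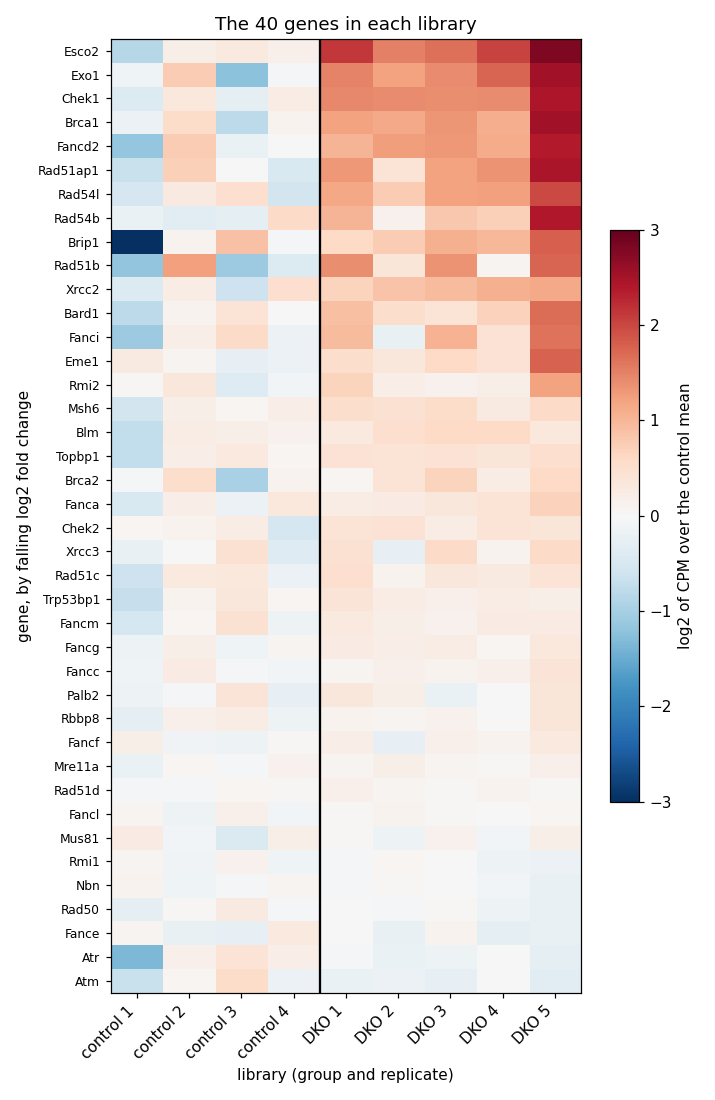
CPM of the 40 genes in each library as log2 of the ratio to the control mean, genes ordered by falling fold change and libraries by group and replicate, with a black line between the groups. Esco2, Exo1 and Chek1 are at the top, with the deepest colour in DKO replicate 5, and control replicate 1 is low for many genes throughout.

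Other genes of DNA repair were read from lists made by role, not by how they moved, though with earlier results of these data known. Among further genes of homologous recombination, Mcm8, a helicase used in recombination, went from 1.59 to 3.45 CPM (fold change 1.12, adjusted p = 0.0357), a call lost in 7 of 9 fits with a library left out.

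Of 24 genes of damage signalling, 3 rose and the median was 0.01. Clspn, the adaptor through which ATR activates CHK1, went from 1.74 ± 0.274 CPM (SD, n = 4) to 4.66 ± 1.44 CPM (SD, n = 5), with a fold change of 1.42 (SE 0.23, adjusted p = 0.00949 from edgeR). H2afx, the histone variant that ATM phosphorylates at breaks, had a fold change of 0.73 (adjusted p = 0.0346). Timeless, a fork protection gene, had one of 0.72 (adjusted p = 0.0377). The call of Clspn held in all 9 fits with a library left out, that of H2afx in 3 and that of Timeless in 2. Of 23 excision repair genes, 1 rose: Neil3, a glycosylase that also unhooks crosslinks, had a fold change of 1.34 (adjusted p = 0.0478) and held in 2 of the 9 fits.

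Nonhomologous end joining, which seals breaks without a template at any stage of the cycle, had 0 of 10 genes called in edgeR and 8 of 10 with a fold change below 0 (median -0.11). The smallest p was that of Xrcc5, the Ku80 subunit that binds broken ends, with mean CPM of 33.3 in control against 27.8 in DKO (-0.26, unadjusted p = 0.00914, adjusted p = 0.137). DESeq2 and limma-voom called Xrcc5 lower (adjusted p = 0.0199 and 0.0420). None of 6 other mismatch repair genes was called by edgeR, and 0 had an unadjusted p under 0.05. Msh3, which recognises small loops, had a fold change of -0.15 (adjusted p = 0.540), and was called lower without control replicate 1 (-0.28, adjusted p = 0.0206) and by limma-voom (-0.26, adjusted p = 0.0371). Of 17 tested genes of p53 and its targets, 0 were called and 1 had an unadjusted p under 0.05, Phlda3 (-0.63, unadjusted p = 0.0107, adjusted p = 0.150), which DESeq2 called lower (adjusted p = 0.0451). With DESeq2, 12 genes of these lists were called in place of 6.

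Promoter windows of 250 bases before to 50 after the start were found in RefSeq (GRCm38.p6) for 30 of the 40 genes, matched by symbol. Esco2, Exo1, Fancd2, Nbn, Rad50, Rad51d, Rad54b, Rbbp8, Rmi2 and Xrcc2 were not matched. Words known from promoters of cell cycle genes were searched on both strands. The E2F words TTTGGCGC, TTTCCCGC and TTTCGCGC occurred in 8 of the 30 (26.7%) and in 573 of all 27025 genes with a window (2.12%). The 8 sites are shown for where they lie among the fold changes, each of 28 bases, 5′ to 3′ in the direction of the gene, with the word or its reverse complement in capitals.

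Chek2: gggattagccGCGGGAAAccaagacgtc
Topbp1: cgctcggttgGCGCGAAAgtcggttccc
Bard1: cgccgctcagTTTCCCGCtcaggaagtt
Brca2: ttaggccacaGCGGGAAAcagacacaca
Rad51c: tttccagcgcTTTCGCGCctcttgctct
Fancg: ttcttttcagTTTCCCGCggaaccgtct
Rmi1: cccgagggagTTTGGCGCgattggagga
Msh6: tcctcccgacTTTCCCGCcagcggcggc

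None of the 8 genes with such a word was called. Among all 30 genes with a window only Chek1, Brca1 and Rad54l were called, and 2.83% of all tested genes. The lack of calls among 8 genes therefore says little about the word. The fold changes of the 8 ran from -0.06 for Rmi1 to 0.91 for Bard1. The Topbp1 site lies at chr9:103305188-103305215, 129 bases before the start at its first word base, and the Msh6 site at chr17:87975055-87975082, 15 bases after it. The NF-Y word CCAAT was in 18 of the 30 windows (60%) against 41.1% of all genes, and the CHR words TTTGAA and TTCGAA in 4 of the 30 (13.3%) against 21.7%. A further E2F-like word, GGCGGGAA, which overlaps the reverse complement of TTTCCCGC by 7 bases and was added after the sequences were seen, was in 5 of the 30 (16.7%) against 2.52%. A match of letters is a description and not a bound site.

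Of the 5 genes that rose, 3 had a window, and each held 1 of the words. For Chek1 this was only the word added after the sequences were seen. The windows are printed because they belong to called genes, 5′ to 3′ in the direction of the gene with the word in capitals. Rad54l had 2 windows, of which the first is used here. For Rad54l (chr4:116123691-116123940) and Brca1 (chr11:101551956-101552205), both on the minus strand, the 250 bases before the start are given, with CCAAT at 50 and 86 bases before it. For Chek1, also on the minus strand, the last 30 bases of the window (chr9:36726609-36726638) hold the added word GGCGGGAA, 42 bases after the start.

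Rad54l: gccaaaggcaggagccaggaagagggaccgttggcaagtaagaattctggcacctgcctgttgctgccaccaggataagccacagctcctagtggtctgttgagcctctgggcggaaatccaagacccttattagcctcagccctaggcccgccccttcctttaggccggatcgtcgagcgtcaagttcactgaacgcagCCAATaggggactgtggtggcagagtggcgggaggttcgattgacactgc
Brca1: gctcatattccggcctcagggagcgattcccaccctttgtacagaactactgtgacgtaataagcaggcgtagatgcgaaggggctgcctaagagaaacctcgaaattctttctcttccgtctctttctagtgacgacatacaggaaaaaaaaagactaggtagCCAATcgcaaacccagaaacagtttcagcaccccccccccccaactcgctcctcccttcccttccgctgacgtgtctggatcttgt
Chek1: cagcatgacgcaagcaggttttGGCGGGAA

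None of these 3 windows held a word of the E2F list searched first, and Esco2 and Exo1 had no window to search. The relation of these words to the fold changes was not tested.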

How the data were processed

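Per the labels' protocols, polyA RNA of 9 libraries (4 control, 5 DKO) was extracted with a Qiagen kit and made into libraries by Takara SMART-Seq v4 with Illumina Nextera Flex. For each library the authors deposited raw counts per gene in 3 columns, 1 unstranded and 1 for each strand. Trim Galore 0.6.0, STAR 2.7.8a and the genome build mm10 are named per the submitters' processing notes, with parameters and annotation not given in the sources used here. Such counts leave out multimapping reads (5.8 to 6.79%) and reads where genes overlap (ambiguous, 4.97 to 5.31%). Unmapped reads were 10.3 to 16.7% and reads in no feature 4.01 to 5.2%. These lines stayed out of library sizes and tests. Symbols and coordinates came from GENCODE M21, in which 55230 of 55471 identifiers were found without the version number and 54573 with it.

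The unstranded column was fitted by edgeR's robust quasi-likelihood F-test (version 4.0.16, R 4.3.3, TMM factors 0.987 to 1.03) on the 14918 genes kept by filterByExpr (minimum count 10, minimum total 15), with Benjamini-Hochberg adjustment over all of them and a threshold of 0.05. Alternatives were DESeq2 size factors, limma-voom with quality weights (limma 3.58.1), the Wald test of DESeq2 1.42.0, a filter of 1 CPM in 4 libraries or no filter at all, summed strand columns, 1 surrogate variable (sva 3.50.0), the replicate number as a block, each library left out, and control replicates 1 and 3 left out; leaving out control replicate 1 with DKO replicate 5 was added after seeing the data. On simulated counts with known changes over 14636 genes, edgeR recovered 71.9% of 2-fold and 90.7% of 4-fold changes with 4.85% false calls, DESeq2 gave 21.4% false calls and limma-voom 3.68%. The 40 genes and all lists were chosen with earlier results of these data known. Values in every library are given for called genes, for the largest fold change in each role and for further genes chosen after their values were seen. Of the other lists, called genes are named, or the smallest p where none was called. Some genes of these lists are not reported here. Promoter words were searched with Python 3.11.15 and pandas 2.3.3, and figures drawn with matplotlib 3.10.9 and numpy 2.4.6.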

Additional observations from a re-analysis of the deposited data

Results flagged for a closer look

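In 12 of 84 groups of CPM values tested (the 40 genes and both targeted genes, each in control and in DKO), the highest or lowest library lay further from the others than Dixon's 95% critical value allows, and chance alone gives about 1 in 20. Of these 12, 8 were DKO replicate 5 as the highest DKO library: Brca1 at 14.5 CPM against 5.34 to 6.26 CPM in the other 4, Rad54l at 16.4 against 7.06 to 9.74, Fancc at 10.5 against 8.52 to 8.98, Eme1 at 7.999 against 2.98 to 3.53, and Fancd2 at 7.81 against 3.08 to 3.74. The remaining 3 of the 8 were Chek1 at 5.25 CPM against 2.59 to 2.69, Rad54b at 4.89 against 1.02 to 1.88, and Bard1 at 3.49 against 1.47 to 2.06. Blm in control replicate 1 was the lowest control value, at 4.46 CPM against 8.14 to 8.62. Chek2 in DKO replicate 3 was the lowest DKO value, at 15.4 CPM against 17.1 to 17.8. In control, Rad51b in replicate 2 was the highest at 0.771 CPM against 0.145 to 0.246, and Rad54b in replicate 4 was the highest at 1.39 CPM against 0.736 to 0.805. The cause was not tested.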

How the results depend on the processing

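In a check of pairing by the labels' replicate numbers, same-numbered libraries had correlations of -0.117 to 0.0124 in their deviations from the group means. None correlated best with its own number in the labels. Whether libraries shared donors or hosts was not tested. Control replicate 4's deposited data carry the number 5, and it correlated best with DKO replicate 5, as did control replicate 2. The block uses the labels' number, and pairs 1 to 3, which do not depend on this, had correlations of -0.0469 to 0.0124. With the replicate number as a block, 1 of the 40 genes (Esco2), 67 of all genes and 1 gene of the other repair lists were called, against 5, 422 and 6. Replicate number 5 occurs only in DKO, so in this fit DKO replicate 5 adds nothing to the difference between groups. The block also takes up more terms, which leaves less power. The DESeq2 Wald test called 9, 1038 and 12, and 1 surrogate variable 11, 1248 and 13. Limma-voom called 6 of the 40 (without Brca1, adjusted p = 0.0563) and 996 of all genes. Leaving out 1 library gave 2 to 6 of the 40 genes, 179 to 749 of all genes and 2 to 8 of the other lists; the fewest of the 40 came without DKO replicate 1, 3, 4 or 5. Leaving out control replicates 1 and 3 together gave 3 of the 40 and 482 of all genes. The 3 were Topbp1, Rad54l and Esco2, of which 2 were among the 5 called with all libraries.

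Directions turned only for genes that were not called with all libraries: Mre11a (-0.015) without control replicates 1 and 3, Rbbp8 (-0.0077) and Nbn (0.0023) without control replicate 1 and DKO replicate 5, Nbn (0.0057) and Rmi1 (0.018) with limma-voom, Fancl (-0.051) and Rmi1 (0.079) with summed strands, Rmi1 (0.041) and Mus81 (-0.046) without control replicates 1 and 3, and Atr (0.020) with the replicate block. With 1 library left out, ranges were -0.18 to 0.024 for Rad50, -0.36 to 0.054 for Atm, -0.41 to 0.043 for Atr and -0.10 to 0.10 for Mus81. The cause was not tested. Oxct1 and Bdh1 kept their calls throughout. The stricter filter dropped 1 of the 40 genes. Depth limits Rad51b most, with 7 to 52 counts a library.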
